A study of Caenorhabditis elegans with 2 samples.

Results

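Peak summits of tagged T26A8.4 that lay between genes on the autosomes, away from any promoter, are described here. A summit is the base of highest signal in a peak of chromatin immunoprecipitation sequencing (ChIP-seq), which measures where a protein is found on DNA. A summit was taken when it lay in no protein-coding gene, in no promoter window (1000 bp upstream to 200 bp downstream of a protein-coding start) and more than 200 bp from any tRNA, snoRNA or snRNA gene. The combined list of both replicates held 2993 summits, 2439 of them autosomal, and 441 met this rule. These 441 summits, called members, lay in 429 distinct intervals. No measured value other than presence in the list was used to choose them, and the label holds for all 441 by the annotation used and for 440 of 441 by the RefSeq annotation of the same assembly.

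The animals were whole Caenorhabditis elegans L4 larvae of strain OP692, 48 hours old and synchronised by bleaching and starvation at L1. They carried the integrated transgene wgIs692, which holds T26A8.4 fused to TY1, EGFP and 3xFLAG together with unc-119(+), in an unc-119(tm4063) background. Chromatin was sheared by sonication and precipitated with an anti-GFP antibody. There was 1 group of 2 libraries, which the labels call biological replicates. Both therefore share the transgene, the rescue and the mutant background, neither an untagged strain nor the control named in the labels was analysed here, and the tagged protein came from the transgene while the labels record no change to the animal's own T26A8.4 gene. No summit of the combined list lay within 20 kb of T26A8.4 or of unc-119.

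T26A8.4 is named in RefSeq as a protein with a C3H1-type domain, a kind of zinc finger that in other proteins often binds RNA and in some binds DNA. Worm genes are closely packed, so the sequence between them holds the distal enhancers of the next gene, the stretch past the last exon where RNA polymerase II terminates, noncoding RNA genes and copies of transposable elements. Peaks in such sequence are often called distal peaks. In worms many factors are found together at the same open sites, and a peak does not show which gene, if any, a factor acts on.

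The sequences of several members carry the results that follow, and 3 sets are shown, all from the RefSeq WBcel235 assembly (the ce11 build). The first set holds copies of an element that gave 4 of the 16 strongest members. The reference copy lies at chrIV:4728023-4728185 in the second strongest member. Capitals in the other copies mark aligned bases that differ from that reference. The same 163 bases occurred with no difference at chrIV:4184802-4184964 and chrIV:4720556-4720718, both members, and at chrV:17519243-17519405, which had no summit. The copy at chrII:3523612-3523775 had a weaker summit inside an intron of col-72 and differed at 6 aligned bases, and the copy at chrV:4063748-4063911, without a summit, differed at 5; each also had 1 inserted base.
Element 1, chrIV:4728023-4728185, plus strand: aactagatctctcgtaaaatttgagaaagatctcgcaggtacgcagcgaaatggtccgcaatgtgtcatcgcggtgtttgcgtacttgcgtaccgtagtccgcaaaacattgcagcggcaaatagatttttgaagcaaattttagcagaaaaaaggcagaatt
Element 1, chrII:3523612-3523775, minus strand: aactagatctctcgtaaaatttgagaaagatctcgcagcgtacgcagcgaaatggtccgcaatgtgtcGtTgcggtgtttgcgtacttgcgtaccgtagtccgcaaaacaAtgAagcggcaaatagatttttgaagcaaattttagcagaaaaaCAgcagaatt
Element 1, chrV:4063748-4063911, plus strand, no summit: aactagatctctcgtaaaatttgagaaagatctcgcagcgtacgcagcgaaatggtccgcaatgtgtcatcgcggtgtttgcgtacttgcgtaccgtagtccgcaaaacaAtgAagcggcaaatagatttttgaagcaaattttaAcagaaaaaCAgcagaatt

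The second set holds copies of another element, which gave the third, sixth, seventh and eighth strongest members. The reference copy is at chrII:4047999-4048209 and capitals again mark aligned bases that differ from it. The copy at chrIV:16845558-16845769, a member, differed at 4 aligned bases. The copy at chrIV:15530594-15530803, also in intergenic sequence but without a summit, differed at 5.
Element 2, chrII:4047999-4048209, plus strand: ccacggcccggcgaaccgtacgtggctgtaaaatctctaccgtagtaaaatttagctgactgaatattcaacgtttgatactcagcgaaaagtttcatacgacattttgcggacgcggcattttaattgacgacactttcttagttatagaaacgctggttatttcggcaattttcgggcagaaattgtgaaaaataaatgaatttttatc
Element 2, chrIV:16845558-16845769, plus strand: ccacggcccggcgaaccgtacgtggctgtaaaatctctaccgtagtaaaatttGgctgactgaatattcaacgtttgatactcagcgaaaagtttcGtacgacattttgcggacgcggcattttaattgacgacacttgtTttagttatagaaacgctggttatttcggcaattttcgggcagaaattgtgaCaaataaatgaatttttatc
Element 2, chrIV:15530594-15530803, minus strand, no summit: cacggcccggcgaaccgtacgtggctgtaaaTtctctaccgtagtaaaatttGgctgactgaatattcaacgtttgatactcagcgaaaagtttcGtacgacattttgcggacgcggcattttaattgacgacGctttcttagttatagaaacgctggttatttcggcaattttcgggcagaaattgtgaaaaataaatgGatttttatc

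The third set holds windows of 200 bp around single members that show the kinds of sequence found. The strongest member with an 8-base GAGA repeat lay between T04C4.3 and fnip-2, and its capitals mark GAGAGAGA and the 9-base word GAGACGCAG on both strands. The fourth strongest member lay inside the lincRNA gene linc-128, and its capitals mark GAGAGA on both strands. The strongest member within 200 bp past a 3′ end lay downstream of xbp-1, and its capitals mark CACGTG. The strongest member near the microRNA gene mir-80 has GAGAGA on both strands in capitals.
Between T04C4.3 and fnip-2, chrIV:2219521-2219720, plus strand: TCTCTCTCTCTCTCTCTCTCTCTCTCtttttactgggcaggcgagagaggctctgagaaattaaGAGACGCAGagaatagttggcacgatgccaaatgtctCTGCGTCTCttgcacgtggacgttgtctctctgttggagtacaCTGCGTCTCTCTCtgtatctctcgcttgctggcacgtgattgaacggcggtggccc
In linc-128, chrV:1151396-1151595, plus strand: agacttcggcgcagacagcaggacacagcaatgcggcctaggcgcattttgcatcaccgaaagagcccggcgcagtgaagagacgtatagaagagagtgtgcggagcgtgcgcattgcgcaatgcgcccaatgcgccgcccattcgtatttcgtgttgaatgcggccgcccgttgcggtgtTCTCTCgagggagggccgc
Past xbp-1, chrIII:4195442-4195641, plus strand: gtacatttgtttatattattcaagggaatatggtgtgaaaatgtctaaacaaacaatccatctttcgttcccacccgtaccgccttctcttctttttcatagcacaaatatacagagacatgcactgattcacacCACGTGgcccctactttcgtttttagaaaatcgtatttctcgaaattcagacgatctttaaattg
Near mir-80, chrIII:8865506-8865705, plus strand: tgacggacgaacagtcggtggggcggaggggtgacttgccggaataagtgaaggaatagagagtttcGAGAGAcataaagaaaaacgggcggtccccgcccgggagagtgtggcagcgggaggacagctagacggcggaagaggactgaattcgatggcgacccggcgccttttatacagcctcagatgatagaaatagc

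The members were fewer than their share of sequence. They were 18.1% of autosomal summits (441 of 2439; Wilson 95% interval 16.6 to 19.7%), while 23.4% of autosomal bases met the same rule, called eligible bases. The ratio was 0.774, with an exact Poisson interval of 0.703 to 0.849. There were 22.9 members per Mb of eligible sequence. This density ran from 18.0 per Mb on chromosome IV and 18.9 on V, through 22.4 on II and 27.5 on I, to 34.8 on III. Chromosome III held 22.0% of the members and 14.4% of the eligible bases. Chromosome IV held 20.4% of the members and 25.9% of the eligible bases. Summits of all kinds were spread in a like way, with 548 of the 2439 autosomal summits on III and 460 on IV. Members were 17.7% of the summits on III and 19.6% on IV, against 18.1% over the autosomes. By chromosome the ratio was 0.876 on III, 0.885 on I and 0.685 on IV, so III did not stand out by this measure. In the middle 50% of the chromosome, where worm genes of basic function are dense, lay 254 members (57.6%, interval 52.9 to 62.1%) against 46.4% of eligible bases. All such intervals cover counting error alone, treat summits as separate, and carry no p-value.

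The peak signal, the authors' own score for each peak, had a median of 118 over the members (quartiles 94.7 and 158, highest 1238). The median was 137 for autosomal promoter summits, 107 for those in introns or untranslated exons, 129 for X-linked intergenic summits and 123 for all summits. Of the members, 15 (3.40%) were among the 100 strongest summits of the list, close to the 3.34% of all summits. Only 76 (17.2%) were among its strongest 25%. In the replicates' own ranked lists the median signal was 60.9 in replicate 1 (422 members listed at the summit) and 64.3 in replicate 2 (414 listed). The sources used here do not give the scale of the signal, so sizes were compared within a list only and values of both replicates are given beside each other without reading which is higher.

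A peak of both replicates' own thresholded lists, overlapping by at least 50% of the shorter peak, was found for 161 members. That is 36.5% (interval 32.1 to 41.1%), against 44.9% of all summits of the combined list. The share was 36.2% for intron or untranslated exon summits, 51.5% for promoter summits and 49.4% for X-linked intergenic summits. A further 57 members (12.9%, against 13.5% of all summits) overlapped a peak of replicate 1 only and 96 (21.8%, against 16.8%) a peak of replicate 2 only. Neither list held a peak for 127 members (28.8%), against 24.7% of all summits. The conservative list held 355 members with the same interval and summit (80.5%), against 80.4% of all summits. The share in both replicates followed the signal, from 87.3% of the 110 strongest members to 42.7% of the next 110, 8.18% of the 110 after those and 8.11% of the 111 weakest. The combined list was made from the same 2 replicates, so its signal and this share are not independent.

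**Figure D1:**
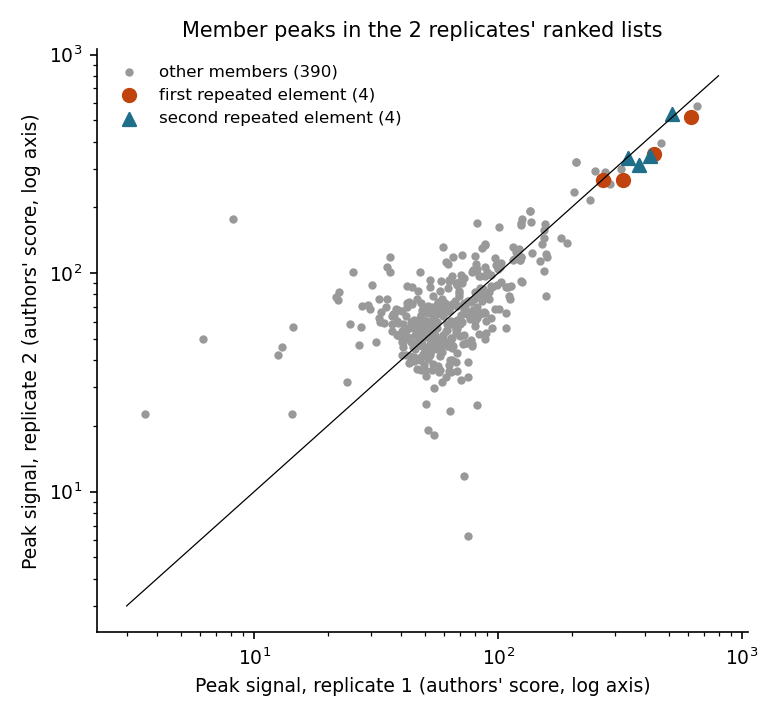
Peak signal of the 398 members listed at the summit in both replicates' ranked lists, replicate 1 on the x axis and replicate 2 on the y axis (authors' score, both axes log). The line marks equal numbers and gives no direction, since the scales of the lists are not known; the 4 members of each repeated element, in colour, lie among the points with the highest signal in both replicates.

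Several of the strongest members sat at repeated elements, and 9 of the 15 strongest had another copy in the genome. The strongest of all, at chrIV:4725436-4725785, had a signal of 1238 in the combined list, 656 in replicate 1 and 584 in replicate 2. It lay 297 bp past the 3′ end of K08F11.1, named as a lipoprotein in RefSeq. The second, with its summit at base 4728036 of the same chromosome, had 1114, with 619 and 516 in the replicates. Another member, at base 4720711, upstream of K08F11.1, had 591, with 325 and 267. All 3 overlapped a peak of both replicates. They form 1 local group over 7325 bp.

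Element 1 was found at 8 places in the genome, with 95.7 to 100% identity to the reference over about 163 aligned bases. The search took 300 bp around the summit, and the reference stretch ends at the edge of that window. Sequence beyond the edge was not compared, so the element may be longer. Of the 8 places 5 had a summit, 4 of them members and 1 in an intron. The 4 members had signals of 1114, 770.4, 591 and 523, and each overlapped a peak of both replicates. The 770.4 member lay at chrI:2639663-2639973, 394 bp past the 3′ end of F40E3.3, with 434 in replicate 1 and 352 in replicate 2. The 523 member had 269 and 266. Their summits fell at nearly one place in the element, 7, 7, 10 and 13 bp from its first aligned base. The intron summit, at the copy with 95.7% identity, had a signal of 113, with 56.7 and 56.9 in the replicates, and lay 35 bp in.

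Element 2 was also found at 8 places, with 95.7 to 98.1% identity to its reference. Its reference stretch also ends at the edge of the search window. A summit stood at 5 of the 8 places, again 4 members and 1 in an intron. The strongest member, with its summit at base 4048060 of chromosome II, had 1047, with 514 in replicate 1 and 535 in replicate 2. It lay 2564 bp upstream of the start of K07D4.2. The next, at chrIV:3313348-3313688, had 761, with 419 and 345, and lay 329 bp past the 3′ end of zip-11, a bZIP transcription factor gene, in a convergent region. The member at base 16845574 had 699, with 378 and 314. The member between C46C2.7 and wnk-1, a kinase gene, had 676, with 342 and 337. The intron summit, in the serotonin transporter gene mod-5, had 420, with 241 and 179. The 4 members' summits lay 16, 20, 56 and 61 bp from the first aligned base, so they were more spread than in element 1.

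Identity over the aligned stretches did not order the copies by signal. One copy of element 1 with all 163 bases identical had no summit, and neither did 3 of the 8 copies of element 2, with 97.6, 97.6 and 95.7% identity. One of those 3 had a peak of signal 54.1 in the combined ranked list. Near-identical copies share reads, and the sources used here do not say how the authors assigned reads that match several places. Which copies the protein was on and which received shared reads cannot be told apart from peak lists.

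**Figure D2:**
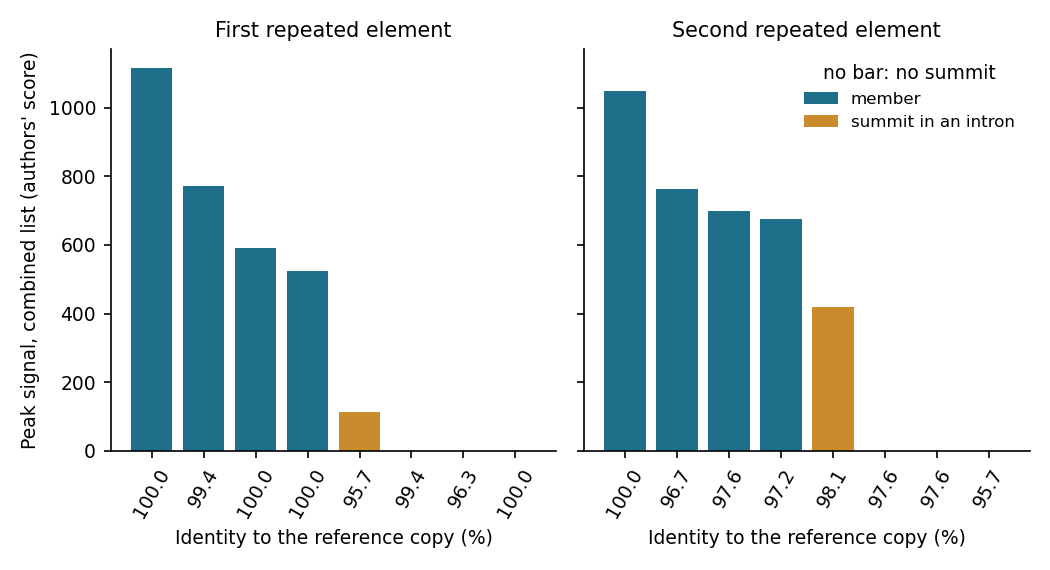
Peak signal in the combined list (y axis, authors' score) at each of the 8 genomic copies of element 1 (left) and element 2 (right), labelled with the identity to the reference copy in percent. Bars are members or intron summits, and 3 copies of each element have no summit; copies with high identity are found both with and without a bar.

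Over all members, another copy in the genome was less frequent than in windows without a peak. Another copy here means at least 80% identity over at least 100 bp across the summit in a 300 bp window. It was found for 92 members (20.9%, interval 17.3 to 24.9%) and for 31.7% of 2298 eligible windows without a peak. It was found for 10.1% of autosomal promoter summits, 14.5% of intron or untranslated exon summits, 11.9% of X-linked intergenic summits and 40.4% of autosomal summits near tRNA, snoRNA or snRNA genes. Among the 25 strongest members 12 had another copy (48.0%, interval 30.0 to 66.5%), against 80 of the other 416 (19.2%, interval 15.7 to 23.3%). The median signal was 124 for members with another copy and 114 for those without. Of the former 45.7% were in both replicates, of the latter 34.1%. The strongest member had 7 other copies with 90.1 to 99.0% identity, 4 of them with a summit. The member at base 5346562 of chromosome II, upstream of F09E5.14, named as a neuropeptide-like protein in RefSeq, had 19 other copies, 10 of them with a summit, and a signal of 556 (279 and 266 in the replicates). A further element with 72 copies, at chrIV:2740022-2740441 inside a pseudogene, had a summit at 14 copies, and its 6 members had signals of 91.7 to 197, with 2 in both replicates. In all, 21 members fell in 5 groups of at least 3 members linked by shared sequence. Links could run through other summits, so a member need not share sequence with each of the others. The member at base 1154018 of chromosome V was in such a group though its own window had no other copy.

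Among members with no other copy, the strongest was inside linc-128, a long intergenic noncoding RNA gene, at chrV:1151313-1151709. It had a signal of 859, with 463 in replicate 1 and 393 in replicate 2. It lay 4775 bp upstream of cmd-1, which encodes calmodulin, a calcium sensor. It belonged to the largest local group, 5 members over 3680 bp that all lay upstream of cmd-1. The other 4 were much weaker, at 77.8 to 134, and 1 of them overlapped a peak of both replicates. Of these 4, 2 belong to a group of 3 members linked by shared sequence. The strongest member of chromosome III, at base 4282185, had 634, with 319 and 299, and lay 1961 bp upstream of sup-26, which encodes a protein with an RNA recognition motif. The member between T04C4.3 and fnip-2 had 567, with 274 and 289. The member past xbp-1, a transcription factor of the unfolded protein response, had 565, with 209 in replicate 1 and 323 in replicate 2, and lay 184 bp past the 3′ end. The member past nlp-40, a neuropeptide-like gene of the defecation rhythm, had 545, with 287 and 257, and lay 176 bp past its 3′ end. The last of the 15 strongest, at base 14055238 of chromosome V and upstream of F58D12.3, had 531, with 250.4 and 292.

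Of the 441 members, 164 (37.2%, interval 32.8 to 41.8%) had another member within 5 kb. The same share was not computed over all summits. These 164 formed 70 local groups, 52 of them pairs. Many of the pairs were close summits that need not be separate sites, and the share of 37.2% counts them all. Their spacing was often like that of the pairs near tcc-1 and egl-9. Near tcc-1 the summits lay 208 bp apart, with signals of 232 and 4.35, and near egl-9 226 bp apart, with 230.4 and 8.55. The tcc-1 and egl-9 pairs are each listed as 2 intervals, so the share of 33.6% with 1 summit per interval still counts them. How much of either share came from such close summits was not tested. The next in size after the group upstream of cmd-1 were 4 groups of 4 members each. One spanned 3658 bp between atfs-1, a transcription factor of the mitochondrial stress response, and T16A9.3. Its strongest member had 234, with 88.7 and 135 in the replicates, and 2 of the 4 were in both replicates. Another spanned 1613 bp between the aldehyde dehydrogenase gene alh-3 and the heme-responsive gene hrg-5. Its signals were 34.8, 78.9, 171 and 177, and 3 were in both replicates. The others spanned 3783 bp between Y49A3A.4 and unc-39, with signals of 87.3 to 153, and 2544 bp between rho-1, the RhoA GTPase gene, and zip-7, with 12.5 to 140.3. No member of these last groups was in both replicates.

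Members lay close behind the ends of genes. Within 500 bp past a protein-coding 3′ end lay 177 members (40.1%, interval 35.7 to 44.8%) against 14.7% of eligible bases, a ratio of 2.73. The first 100 bp stood apart, with 19 members (4.31%) against 3.74% of bases. From 100 to 200 bp there were 50 members (11.3% against 3.25%), from 200 to 300 bp 55 (12.5% against 2.85%, ratio 4.38) and from 300 to 400 bp 36 (8.16% against 2.54%). From 400 to 500 bp the ratio was 1.67 and from 500 to 1000 bp 1.23. Beyond 5000 bp it was 0.616, with 103 members against 37.9% of bases. Past 3′ ends the excess was seen in both arrangements that have such ends. In tandem regions 114 of 270 members (42.2%) lay within 500 bp, against 15.1% of bases. In convergent regions, where the flanking genes point at each other, 63 of 87 (72.4%) did, against 37.5%. The median distance past the nearest 3′ end was 926 bp for members and 3344 bp for eligible bases.

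Members were also more frequent in short intergenic regions and less frequent in divergent ones. Tandem regions held 270 members (61.2%, against 53.5% of bases), convergent regions 87 (19.7%, against 17.6%) and divergent regions 84 (19.0%, interval 15.7 to 23.0%, against 28.8%). Intergenic regions under 2 kb held 92 members (20.9% against 7.95%), and regions of 10 kb or more held 76 (17.2% against 33.7%). The nearest protein-coding start was at a median of 2028 bp, against 2716 bp for eligible bases. The summit was 1000 to 1500 bp upstream of its nearest start for 80 members (18.1% against 13.8%) and over 5000 bp upstream for 22 (4.99% against 12.2%). At the edge of the rule, 17 members lay in the first 100 bp beyond the promoter window, with a median signal of 109, and the 23 summits in its last 100 bp had a median of 111. The member nearest the window lay 1004 bp upstream of col-145 with a signal of 124, and the nearest excluded summit lay 989 bp upstream of ppm-2 with 228. Near tRNA, snoRNA and snRNA genes the member nearest the limit lay 212 bp from a snoRNA gene with a signal of 87.1, and the nearest excluded one 186 bp from a snoRNA gene with 125. The 10 members with a score less than 10 points above the list's threshold of 830 had a median signal of 91.1, and the 8 ranked summits up to 10 points below it at like places had 81.3.

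The 177 members just past a 3′ end differed in base composition from the other 264. GC content in the 200 bp around the summit was 38.7% on average for the first kind and 45.8% for the second. Against flanks 500 to 700 bp away, the first kind was higher by 0.374 percentage points (SD 9.12) and the second by 11.0 (SD 8.37). The window had more GC than its flanks in 92 of 177 (52.0%, interval 44.7 to 59.2%) and in 238 of 264 (90.2%, interval 86.0 to 93.2%). Eligible tiles without a peak had 33.9% and 34.4% GC at like places, and differed from their flanks by −2.22 points (SD 7.65) and 0.0303 (SD 7.43). The signals of both kinds overlapped over most of their range. The median was 119.9 (quartiles 94.7 and 164) near 3′ ends and 113 (94.8 and 155) elsewhere, and 37.3% and 35.98% were in both replicates. Sequence with another copy in the genome was at 29.4% of the first kind and 15.2% of the second.

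**Figure D3:**
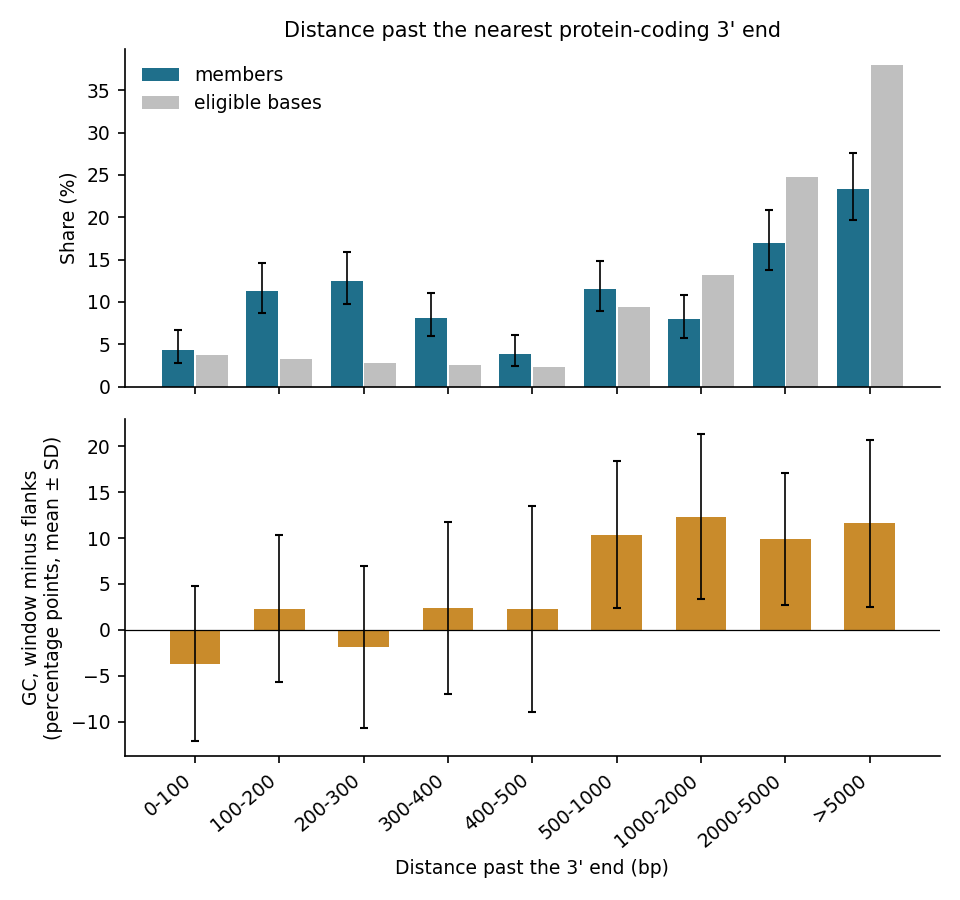
Upper panel: share of members (with Wilson 95% intervals) and of eligible bases by distance past the nearest protein-coding 3′ end (x axis, bp; y axis, percent). Lower panel: mean GC of the members' summit windows minus flanks, in percentage points, with SD over members; members exceed bases most from 100 to 400 bp, and the mean GC step is −3.70 to 2.37 points in the bins up to 500 bp and 9.86 to 12.3 points beyond.

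**Figure D4:**
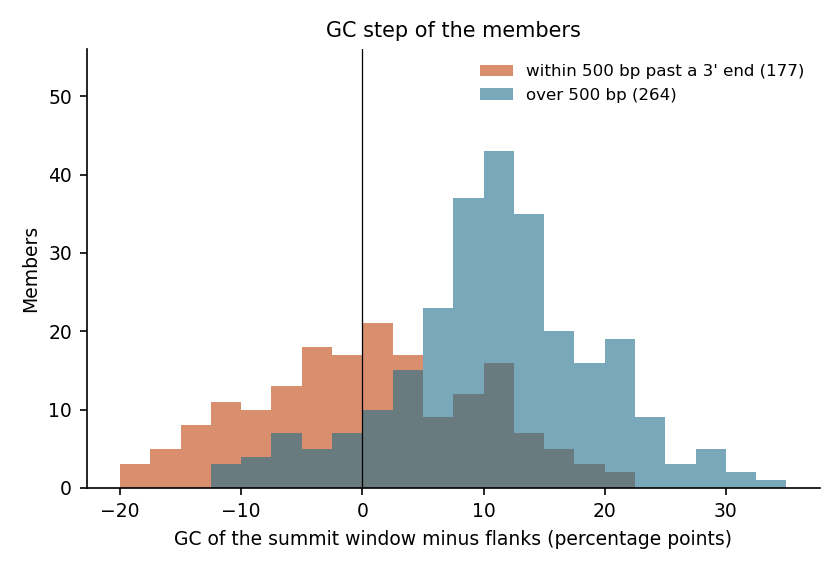
Number of members (y axis) by GC of the 200 bp summit window minus its flanks (x axis, percentage points), for the 177 members within 500 bp past a 3′ end and the 264 others. The first has a mean of 0.374 and the second of 11.0, and they overlap.

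Over all 441 members the mean GC was 43.0% in the window and 36.3% in the flanks, a step of 6.71 points (SD 10.1), with 330 members higher (74.8%). All summits of the list were close to this, with a step of 6.87 points and 75.2% higher. Promoter summits had a step of 4.96, intron or untranslated exon summits 6.70, X-linked intergenic summits 6.98 and autosomal coding exon summits 7.56. By arrangement the step was 11.4 points (SD 8.35) in divergent regions, 6.81 (SD 10.1) in tandem and 1.91 (SD 9.70) in convergent regions. Repeat-masked bases made up 24.0% of the members' windows, 22.15% of the windows of all summits and 41.5% of tiles without a peak.

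The genes whose ends lay just before a member included cuticle collagens, the structural proteins of the worm's outer coat that are made in bursts around each moult. Counting both flanking genes where both end there, 184 distinct genes had a 3′ end up to 500 bp before a member. Of these, 12 were cuticle collagens by a col- name or by their RefSeq product (6.52%, interval 3.77 to 11.1%), against 0.864% of autosomal protein-coding genes. They were col-3, col-10, col-12, col-17, col-77, col-109, col-144, dpy-5, dpy-13, rol-8, sqt-1 and sqt-3, and they had 14 members, 5 of them in both replicates. Genes with a col- name alone were 7 of the 184 (3.804%, against 0.748%). The col-3 member, 259 bp past the end, had a signal of 245, with 88.1 in replicate 1 and 136 in replicate 2. The col-144 gene had a pair of members, at 50 and 255 bp, with signals of 65.0 and 217. The stronger had 81.4 and 110 in the replicates. The dpy-13 gene, whose loss shortens the worm, also had a pair, with signals of 159 and 119.2. These 2 summits shared 1 interval, which overlapped a peak of both replicates. They therefore carry the same call and make up 2 of the 5 counted above. The sqt-3 member had 119.9, with 67.1 and 53.2. Over the 14 members the signal ran from 65.0 to 245, with a median of 124. In 13 of the 14 the window had less GC than its flanks, for example 32.5% against 51.0% at col-3. The exception was sqt-3, with 39.0% against 34.25%. For all 14 the flank on the gene's side lay before the 3′ end, and its part in this difference was not tested. Cytosolic ribosomal protein genes were 4 of the 184 (2.17%, interval 0.849 to 5.46%, against 0.441%), namely rps-6, rps-13, rps-17 and rpl-31. Their members had signals of 87.8, 118.8, 70.7 and 103, none of them in both replicates.

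Other strong members past 3′ ends lay behind genes of many kinds, of which a few with known products are given, chosen after their values were seen. The member 390 bp past xbx-5 had a signal of 345, with 192 and 138 in the replicates. It was also the strongest of the 17 members in the first 100 bp beyond a promoter window. F44E5.4 and F44E5.5, a pair of Hsp70 chaperone genes with closely similar coding sequence, had members 177 and 107 bp past their ends. The first had a signal of 258, with 82.2 in replicate 1 and 170 in replicate 2, and the second had 229, with 118 and 125. Neither window had another copy in the genome. The member past mrpl-51, a mitochondrial ribosomal protein gene, had 284, with 149 and 113, and lay upstream of sqst-1, the worm p62 autophagy adaptor. The member 183 bp past nuo-4, a subunit of respiratory complex I, had 280.0, with 101 and 162.

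Families of the nearest genes by start were sparse. The 441 members had 362 distinct nearest genes, of which 26 (7.18%, interval 4.95 to 10.3%) fell in 10 listed families, against 14.9% of autosomal protein-coding genes. Chemoreceptors, the large sensory receptor family, were 4 of 362 (1.10%, against 7.72%). F-box genes of the fbx group (1.77% of genes) and C-type lectins (1.37%) were at 0 of 362, which with a Wilson interval allows up to 1.05%. Nuclear hormone receptors were 9 (2.49% against 1.43%), genes with a col- name, most of the cuticle collagens, 7 (1.93% against 0.748%), ribosomal proteins 4 (1.10% against 0.441%) and neuropeptide genes 2 (0.552% against 0.615%). Histone, ceh homeobox and tRNA synthetase genes were at 0.

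Few members lay in annotated noncoding genes or pseudogenes, but those in the class annotated as ncRNA were frequent. Any such gene covered 50 members (11.3%, interval 8.71 to 14.6%) against 15.03% of eligible bases. The class ncRNA, a biotype for transcripts placed in no more specific class, covered 36 (8.16%, interval 5.95 to 11.1%) against 1.36% of bases. Pseudogenes covered 9 (2.04%) against 12.2%, and lincRNA genes 6 (1.36%, interval 0.625 to 2.94%, against 0.789%). The strongest ncRNA member, in C10F3.15 at base 6000473 of chromosome V, had 330.0, with 181 and 145 in the replicates. It lay 3128 bp upstream of fos-1, an AP-1 transcription factor gene of anchor cell invasion. A member in the overlapping ncRNA genes F22E12.9 and F22E12.10, 1754 bp upstream of the oxygen-sensing hydroxylase gene egl-9, had 230.4, with 115 and 114. The strongest pseudogene member, upstream of zhp-1, had 202, with 65.1 and 118.7. Members inside noncoding genes had a GC step of 10.2 points (SD 9.94).

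Within 500 bp of a microRNA gene lay 9 members (2.04%, interval 1.08 to 3.83%) against 0.362% of eligible bases. They lay at 6 microRNA genes: mir-51, mir-52 and mir-53 of the mir-51 family, mir-48 and mir-241 of the let-7 family that times larval development, and mir-80. The mir-52 member had 357, with 135 in replicate 1 and 192 in replicate 2, and shared its interval with a weaker summit of 101. The mir-80 member had 291, with 154 and 146, and a further summit at mir-80 had 7.15. The members at mir-53 and mir-51 had 177 and 171, and a further summit at mir-51 had 34.8. The members at mir-241 and mir-48 had 153 and 94.9, and neither overlapped a peak of both replicates.

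Short GA-rich words were frequent around the members. The 8-base repeat GAGAGAGA, on either strand, was in 72 of 441 windows (16.3%, interval 13.2 to 20.1%) and in 1.65% of 91888 tiles of 200 bp without a peak. It was in 6.21% of promoter summits, 10.7% of intron or untranslated exon summits, 5.63% of X-linked intergenic summits and 7.75% of all summits. Within the members it was in 27.4% of divergent, 16.7% of tandem and 4.60% of convergent regions. It was in 5 of 177 members within 500 bp past a 3′ end (2.82%, interval 1.21 to 6.44%) and in 67 of 264 others (25.4%, interval 20.5 to 31.0%), with 1.12% and 1.72% of tiles at like places. Signals of members with and without the repeat overlapped. Those with it had a median of 125 and 36.1% in both replicates, the others 115 and 36.6%.

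Among all 6-base words, compared after these data had been seen and counting a word with its complement, GAGAGA had the largest difference from tiles in percentage points, at 43.3% against 10.3%. Much of this was shared by other summits, since GAGAGA was in 30.5% of all summits. It was in 30.0% of promoter summits and 34.5% of intron or untranslated exon summits. The next 6-base words were compared with tiles only. GAGAGA was followed by AGAGAC (33.3% against 6.70%), AGAGAG (35.6% against 8.997%) and CGTCTC (29.0% against 4.91%). ACGCAG (23.4% against 3.72%), AGACGC (22.9% against 3.70%) and GACGCA (21.5% against 3.93%) were also among the first 12. These 3 and the complement of CGTCTC all lie in 1 longer word, GAGACGCAG. It was in 66 members (14.97%, interval 11.9 to 18.6%), 8.62% of all summits and 0.969% of tiles. It was in 9.71% of promoter summits, 11.2% of intron or untranslated exon summits, 5.00% of X-linked intergenic summits and 0 of 276 coding exon summits. Of its 76 matches, 56 (73.7%) lay within 50 bp of the summit, with a median distance of 27 bp. It was in 27 of the 72 members with the GAGA repeat (37.5%) and in 39 of the 369 without it (10.6%). Together the repeat and the word were in 111 members (25.2%). The word was in 7.91% of members within 500 bp past a 3′ end and in 19.7% of the others (intervals 4.77 to 12.8% and 15.3 to 24.9%).

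Other words were counted on both strands in the same windows. The E box CACGTG was in 8.84% of members against 2.77% of tiles, the CA repeat ACACACAC in 6.80% against 1.31% and the GC box GGGCGG in 8.62% against 3.33%. Over all summits of the list the shares of these words were 7.65, 5.11 and 9.49%. The GATA site GATAAG was in 10.2% against 6.91%, and in 8.45% of all summits. The tRNA B box core GTTCGANNC was in 3.40% against 1.51%, and in 8.45% of all summits. AT-rich words were less frequent than in tiles. TATAAA was in 13.4% against 22.7%, AATAAA in 24.9% against 39.6% and a run of 8 T in 11.6% against 24.9%. Over all summits the shares of these 3 were 12.6, 26.4 and 11.4%, close to those of the members. A match is a description of the letters in the window and was not tested as a binding site. The members' higher GC content goes with these shares, and its part in them was not tested.

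**Figure D5:**
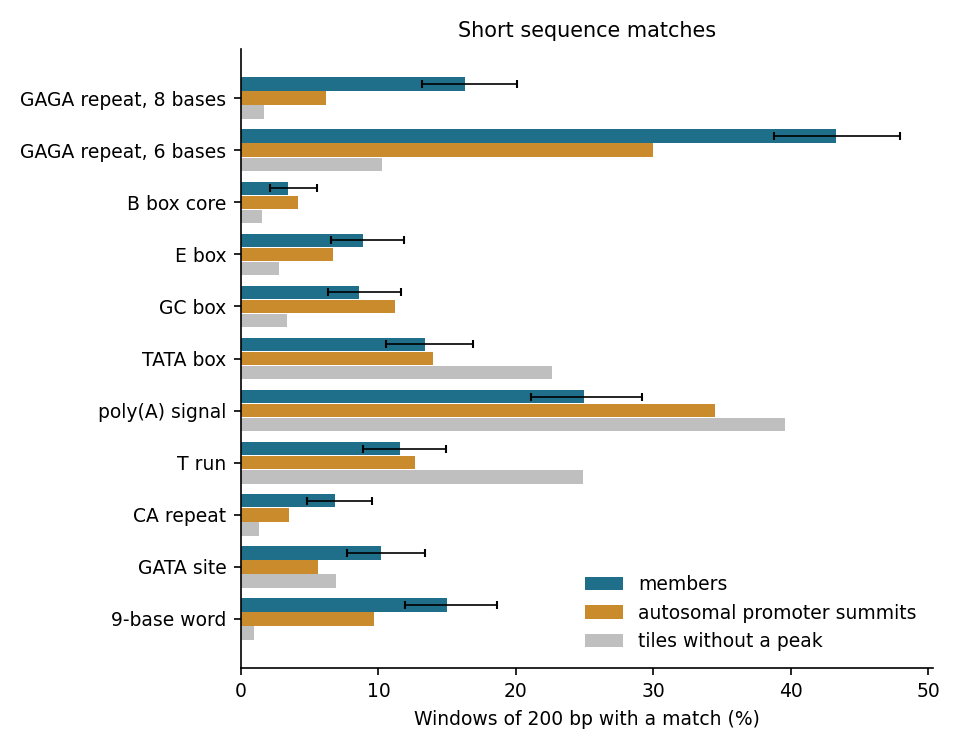
Share of 200 bp windows with each short sequence (x axis, percent) for the 441 members with Wilson 95% intervals, autosomal promoter summits and 91888 eligible tiles without a peak. Both GAGA repeats and the 9-base word GAGACGCAG are more frequent in members than in promoter summits or tiles, and AT-rich words are less frequent than in tiles.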

How the data were processed

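The data were peak lists from ChIP-seq of tagged T26A8.4 in 1 group of 2 biological replicates. Per the file listings, the authors ranked peaks on the ce11 build by the irreproducible discovery rate and deposited thresholded lists for each replicate and for both together. Each deposited peak carries a score (830 to 1000 in the combined list), a signal, treated here as a score of the authors with unstated scale, and a q-value as −log10, used to describe peaks only. Aligner and peak caller: not given in the sources used here. The lists hold no read counts, so depth is unknown and limits on weak peaks cannot be set.

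Summits were placed on RefSeq WBcel235 and Ensembl release 115 genes. Shares carry 95% Wilson intervals, the density ratio an exact Poisson interval. They cover counting error only. Backgrounds were all combined summits, eligible bases sampled every 10 bp, and 200 bp tiles without a peak. Copies were searched with BLAST 2.17.0. Python 3.11.15, pandas 2.3.3, SciPy 1.17.1, statsmodels 0.14.6 and Biopython 1.88 were used, and steps were tested on simulated data. With 1 group there is no contrast and no p-value. The members, lists and alternatives were chosen with earlier results of these data known, and the 3′ end distance, the genome copies and the word GAGACGCAG after these data had been seen. The members named were the 15 strongest found in both replicates, the strongest per autosome, arrangement, noncoding class and GAGA state, those next to the thresholds and the 3 largest local groups with all groups tied for that place, each with its nearest gene. Those near collagen, ribosomal, stress and microRNA genes were named after their values were seen. Every value column was mapped to its group.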

Additional observations from a re-analysis of the deposited data

How the results depend on the processing

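No paired analysis was possible because the series has only 1 group. Of 108 recalculations of 15 results, 87 stayed within the interval of the reported value (for the number of members, within 1.5 times it). Only the GC step could change sign, and it did not. The recalculations that moved follow. Taking each replicate's list alone gave 257 to 304 members, a median signal of 72.9 to 76.9 on another scale, a share with another member within 5 kb of 30.7 to 37.8% and a share with a genome copy of 21.4 to 26.8%. The strongest 50% of summits gave 203 members, 69.5% in both replicates, 21.7% with a neighbour within 5 kb, a GC step of 7.87 points and the word GAGACGCAG in 20.2%. A promoter window of 2000 bp gave 278 members, a density ratio of 0.661, a median distance to a start of 2874.5 bp, a convergent share of 26.6% and a GAGA share of 12.9%. The conservative list gave 43.4% with a neighbour within 5 kb, and 30.4% was found for a distance of 2 kb. Requiring an overlap of 50% of both peaks left 25.6% in both replicates. A 100 bp window gave a GC step of 8.09, and 6 letters, GAGAGA, gave 43.3%. At least 90% identity left 13.6% with a genome copy. Where a definition itself was changed, its construction sets the direction; otherwise the cause was not tested. The share within 500 bp past a 3′ end was 39.3 to 43.2% over its 7 alternatives. Alternatives for the 3′ end share, the word, the genome copies and those without members linked by shared sequence were chosen after seeing the data. Read depth is unknown, so weak members, with 8.11% of the 111 weakest in both replicates, rest on less support between replicates than strong ones.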
